A study of Mus musculus with 10 samples.

Results

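The genes described here are the cytosolic ribosomal protein genes of mouse heart and skeletal muscle, together with the paralogs that share their symbols, among them the muscle-restricted Rpl3l. Members were taken by symbol alone: Rpl or Rps followed by a digit, Rpsa, and Rplp0 to Rplp2, leaving out the Rps6k kinases and symbols marked as pseudogenes. This rule found 86 of the 23337 genes listed. Of these, 46 encode proteins of the large subunit and 31 proteins of the small subunit. Another 8 are paralogs (Rpl3l, Rpl7l1, Rpl10l, Rpl22l1, Rpl36al, Rpl39l, Rps4y2 and Rps27l), and the last, Rps19bp1, encodes a binding protein that is not a ribosome subunit.

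The cytosolic ribosome is built from a large and a small subunit, each made of ribosomal RNA and a set of proteins, most of them present once in each ribosome. Transcripts of these proteins are among the most abundant in most cells, and many carry a run of pyrimidines at their first bases, through which their translation follows the supply of nutrients. Rpl3 encodes a protein of the large subunit that reaches close to the catalytic centre, and Rpl3l encodes a related protein that takes its place in the ribosomes of striated muscle.

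RNA-Seq was performed on the left ventricle (LV) and skeletal muscle (SkM) of 5 mice, of which 2 were WT and 3 were E0del/+, and each library held 1 tissue of 1 mouse. E0del/+ mice carried on 1 allele a deletion of E0, a conserved element in the first intron of Ttn, and the study used them to learn if E0 acts on Ttn in cis or in trans. Mice of both genotypes were bred as hybrids of C57BL/6 and 129SvEv. The age of these mice is not given in the sources used here. Both tissues of a mouse form a pair, and the labels place mouse 1 of each genotype in batch 1, mouse 2 of each genotype in batch 2 and E0del/+ 3 in batch 3. Sequencing gave 11010021 to 17484873 gene counts in a library (median 14050602). Levels are given as CPM, the count of a gene scaled to a common total of gene counts in every library. Levels of different genes are compared as RPKM, which also divides by summed exon length, and shares of counts are named as such.

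Libraries were named by genotype, tissue and mouse number, and 2 of them held transcripts foreign to their label. WT LV 2 held 39920 CPM of 10 fast fibre markers, all of which were detected and of which Myh4 was the most abundant with 18470 CPM. In the other LV libraries the same markers summed to 160 to 183 CPM, and in SkM to 161400 to 172900 CPM. Its 7 ventricular cardiomyocyte markers, led by Myh6, summed to 57270 CPM, against 69800 to 82120 CPM in the other LV libraries. WT SkM 1 held 5514 counts of Xist and also 173 counts of the Y-linked Ddx3y. Other libraries with abundant Xist held 5 to 14 counts of Ddx3y, and the libraries of WT 2 and E0del/+ 3 held 1248 to 1646. Each of the WT mice therefore had 1 library of doubtful purity, and results below are also given without them where this changed a call. The tissue labels otherwise matched their markers, since all 7 ventricular markers were higher in LV and all 10 fast fibre markers higher in SkM. By their Xist and Ddx3y counts, WT 1, E0del/+ 1 and E0del/+ 2 read as female and WT 2 and E0del/+ 3 as male. Each genotype thus held both sexes in unlike proportions. Sex was not a term in the genotype or interaction fits, and its part was not tested.

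Of the 86 members, 80 passed the filter on low counts and were tested, which were 43 of the large subunit, 30 of the small subunit, 6 paralogs and Rps19bp1. The other 6 were Rpl26 with 0 counts in all 10 libraries, Rpl30 with 6, Rpl39l with 8, Rpl10l with 13, Rps27 with 30 and Rpl34 with 53. Rpl10l and Rpl39l are known as paralogs of the testis, and 11 of the 13 counts of Rpl10l came from WT LV 2. Rpl26, Rpl30, Rpl34 and Rps27 encode obligatory subunits, and their near absence went with the layout of the annotation. Rpl26 shared 520 of its 543 exon bases with another listed gene, Gm15772. Rpl30 shared 476 of 626 with Gm12191, Rpl34 shared 401 of 597 with Rpl34-ps1, and Rps27 shared 345 of 575 with Gm9846. These 4 partner genes had 0 counts as well. Across the files, 632 genes shared at least 50% of their exon bases with another listed gene, and 587 of them (92.9%) held under 100 counts over the 10 libraries, against 42.4% of all genes. The software that assigned reads to genes is not given in the sources used here, so how it treated bases of overlapping genes was not tested. Sums over the members therefore leave out these subunits in every library alike.

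Reads can also be lost or gained through near-identical copies, of which ribosomal protein genes have many in the form of processed pseudogenes. Of the 84 members matched by symbol in the GENCODE M21 transcripts, 43 had over 50% of their 50-base windows in the transcripts of other genes, and the median member had 51.1%. The members of the pair at the centre of this account lay at opposite ends. Rpl3 shared 85.6% of its windows, with 26 other genes, whereas Rpl3l shared 0%. Across members, the shared percentage had a Spearman's rho of 0.0722 with mean RPKM, a description over genes that are not independent replicates.

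Rpl3 lies on chromosome 15 (mm10 chr15:80077781-80083406, minus strand) and Rpl3l on chromosome 17 (chr17:24727829-24736149, plus strand). Their coding sequences in GENCODE M21 (GRCm38) have 1212 and 1224 bases, and 915 of 1232 aligned positions were identical (74.3%). The longest identical run had 22 bases. The most alike stretch of 120 bases, from base 727 to base 846 of both coding sequences, is shown because it marks how far reads of both genes can be told apart. The 97 bases that both share are in lower case and the 23 that differ in capitals.
Rpl3: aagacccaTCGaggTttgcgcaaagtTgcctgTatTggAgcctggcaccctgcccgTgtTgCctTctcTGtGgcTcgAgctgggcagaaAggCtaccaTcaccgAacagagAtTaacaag
Rpl3l: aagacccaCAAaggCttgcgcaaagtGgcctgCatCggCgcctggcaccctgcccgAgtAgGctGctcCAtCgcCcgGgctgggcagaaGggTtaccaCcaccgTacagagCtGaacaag
Even within this stretch, differing bases were spread over its whole length.

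Within each tissue the members covered a wide range of levels. Over the 73 tested subunit genes, RPKM in LV ran from 6.10 for Rps15a to 380 for Rps2, with a median of 81.5, and in SkM from 5.56 to 303 for the same genes, with a median of 63.5. The median subunit gene lay above all but 2.84% of the genes listed in LV and 3.09% in SkM. Rps2 of the small subunit was the highest member in both tissues, with 380 ± 62.8 RPKM in LV and 303 ± 19.3 RPKM in SkM. Rplp1 of the stalk stood at 227 ± 60.8 RPKM in LV. Rpl3l was in second place in SkM with 274 ± 26.6 RPKM, while its 198 ± 10.99 RPKM in LV put it eighth. Rps2 (269.5 to 318.5 RPKM) and Rpl3l (243 to 316 RPKM) overlapped over the 5 SkM libraries. At the lower end, leaving aside the 6 untested genes, stood Rps19bp1 (4.46 RPKM in LV and 4.39 in SkM), Rpl22l1 (5.33 and 9.01), Rps15a (6.10 and 5.56) and Rps4y2 (8.86 and 1.35). The place of Rps15a rests on its listed exon length of 5134 bases, against a median of 729.5 over the tested members, since its mean CPM in LV was 31.3. Apart from the paralogs, members kept their order between tissues, with a Pearson's r of 0.976 across the 73 subunit genes on the log2 scale. This describes genes measured in the same libraries and with the same exon lengths.

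**Figure D1:**
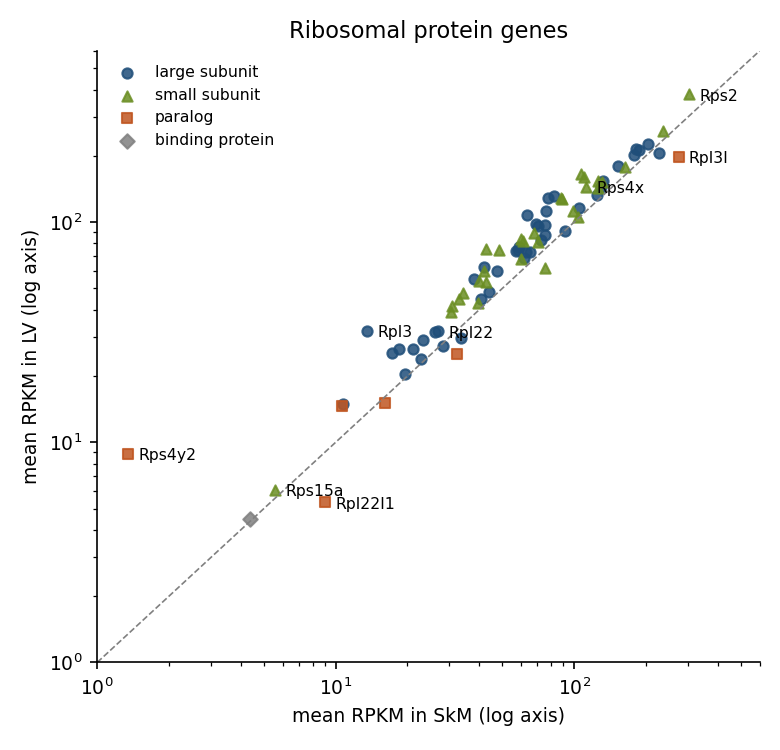
Mean RPKM of each member with more than 1 RPKM in both tissues, in SkM (x axis) and in LV (y axis), n = 5 libraries each, both axes logarithmic, with the dashed line at equal levels. By RPKM, which scales by total counts, most subunit genes lie somewhat above the line (medians 81.5 in LV and 63.5 in SkM), a direction that flips with TMM factors. Rpl3 (32.0 and 13.5) and Rps4y2 (8.86 and 1.35) lie further above it, and Rpl3l (198 and 274) and Rpl22l1 (5.33 and 9.01) lie below it.

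Rpl3l was abundant in both muscles and higher in SkM. It stood at 307 and 335 CPM in the LVs of WT 1 and WT 2, and at 305, 332 and 296 CPM in those of E0del/+ 1 to 3. In the SkM of the same mice it stood at 424, 504, 388, 426 and 442 CPM. The lowest SkM library thus lay above the highest LV library, and LV and SkM averaged 315 ± 17.5 and 437 ± 42.4 CPM (SD, n = 5). With TMM scaling, which equalizes the bulk of genes between libraries, LV differed from SkM by a log2 fold change of -1.13 with an SE of 0.13, lower in 5 of 5 mice (edgeR's quasi-likelihood test paired by mouse, adjusted p = 0.000212). Scaling by total counts alone gave -0.47, with the same direction and call.

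Rpl3 had the opposite pattern at a lower level. It stood at 41.3 and 29.2 CPM in the LVs of WT 1 and WT 2, and at 38.1, 68.3 and 41.1 CPM in those of E0del/+ 1 to 3. In SkM it stood at 32.5 and 7.21 CPM in WT, and at 24.2, 12.2 and 15.6 CPM in E0del/+. LV was the higher tissue in 5 of 5 mice by CPM and in 4 of 5 after TMM scaling, but the ranges overlapped, since WT SkM 1 (32.5) lay above WT LV 2 (29.2). These are also the libraries of doubtful purity. The tissue means were 43.6 ± 14.6 and 18.3 ± 10.1 CPM, which TMM scaling turned into a log2 fold change of 0.70 with an SE of 0.26 (edgeR's quasi-likelihood test, adjusted p = 0.0458). With total counts it was 1.37. This call was close to its threshold: adjusted p from edgeR or DESeq2 ranged from 0.00738 to 0.151 over the alternatives. Without pairing by mouse it was 0.0887, and without WT 2, E0del/+ 2 or E0del/+ 3 it was 0.110, 0.151 and 0.111. In the 3 E0del/+ mice alone, an alternative chosen after seeing the data, the log2 fold change was 0.80 (adjusted p = 0.0455) for Rpl3 and -1.13 (adjusted p = 0.0034) for Rpl3l, both by edgeR. Adjusted p for Rpl3l ranged from 1.96e-19 (DESeq2) to this value over all alternatives.

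**Figure D2:**
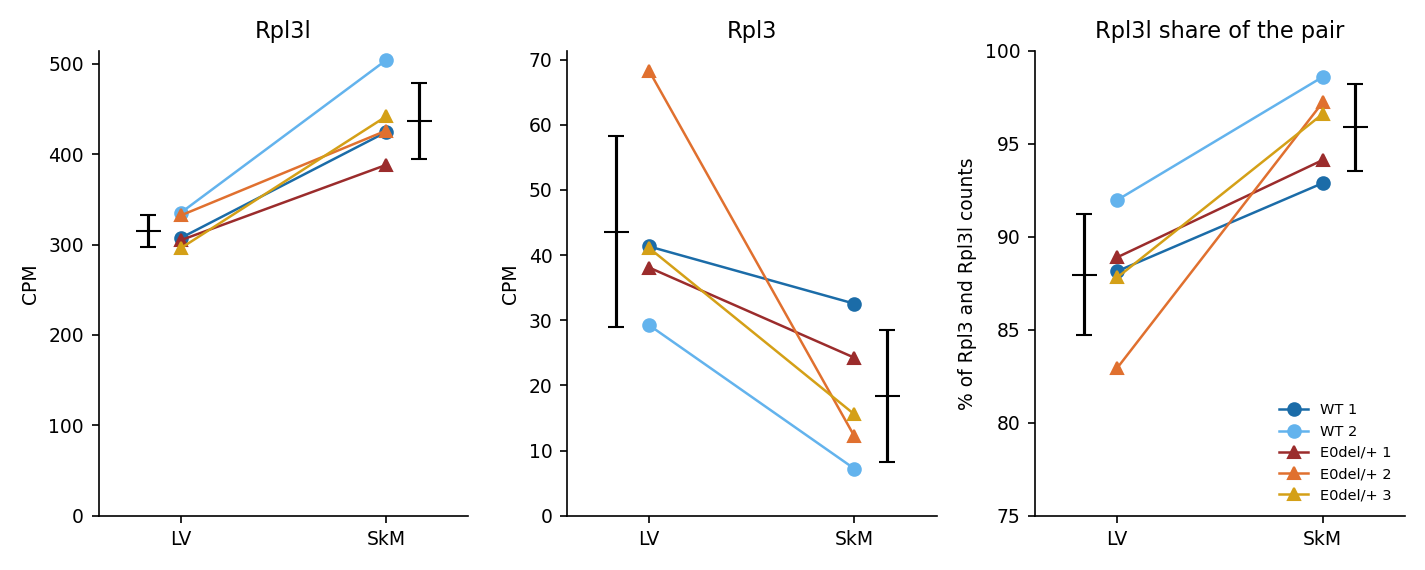
CPM of Rpl3l (left) and Rpl3 (middle), and Rpl3l as a percentage of the counts of both genes (right, axis from 75 to 100), in LV and SkM. Lines join both tissues of a mouse, circles are WT, triangles E0del/+, and bars give mean and SD over 5 libraries. In every mouse Rpl3l and its share were higher in SkM, and Rpl3 was higher in LV by CPM.

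Within the pair, Rpl3l supplied most counts in all 10 libraries. Its share of the counts of Rpl3 and Rpl3l was 88.0 ± 3.25% in LV and 95.9 ± 2.33% in SkM (SD, n = 5), and by RPKM 86.2 ± 3.64% and 95.2 ± 2.69%. In LV the share ran from 82.9% in E0del/+ LV 2 (95% Wilson interval 81.8% to 84.0%, which covers counting error only) to 92.0% in WT LV 2 (91.1% to 92.8%). In SkM it ran from 92.9% in WT SkM 1 (92.2% to 93.5%) to 98.6% in WT SkM 2 (98.3% to 98.8%). The values of the tissues did not overlap, but the intervals of WT LV 2 and WT SkM 1, the libraries of doubtful purity, did. Apart from WT LV 2, the highest LV share was 88.9%, in E0del/+ LV 1. Within mice, the LV share was lower by 4.73 to 14.3 points, with a mean difference of -7.93 ± 3.88 points. Per exon length the ratio of Rpl3l to Rpl3 was 6.65 ± 2.03 in LV and 27.7 ± 19.4 in SkM. If only the 14.4% of Rpl3 windows found in no other gene had been counted, and Rpl3 was raised to match, the Rpl3l share would be 52.0 ± 7.51% in LV and 78.0 ± 10.4% in SkM. This alternative was chosen after seeing the data, and the size of the share thus rests on how shared reads were counted. It raises Rpl3 by the same factor in every library and so cannot test the order of the tissues.

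As counted, Rpl3l lay above and Rpl3 below the median level of the subunit genes in both tissues. Rpl3l stood at 2.50 ± 0.355 times the median RPKM of the subunit genes in LV and at 4.30 ± 0.379 times in SkM. Rpl3 stood at 0.391 ± 0.0627 times that median in LV and 0.212 ± 0.11 times in SkM. Raised for shared windows as above, an alternative chosen after seeing the data, it stood at 2.71 ± 0.434 and 1.47 ± 0.761 times the median, with the other subunit genes left as counted. The places of both genes with all members raised for shared windows were not tested. The RPKM of both genes together was 2.89 ± 0.301 times the median in LV and 4.51 ± 0.312 times in SkM. Rpl3l alone made up 5.04 ± 0.671% of the members' counts in LV and 8.01 ± 0.862% in SkM.

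Rpl3 was also the least even member between SkM libraries, with an SD of log2 CPM of 0.71. It stood at 32.5 and 24.2 CPM in the WT and E0del/+ mice of batch 1, at 7.21 and 12.2 CPM in those of batch 2, and at 15.6 CPM in E0del/+ 3. Markers of other cell types varied between the same libraries. The 7 leukocyte markers, all detected and led by Cd74, summed in SkM to 215 CPM in WT 1, 338 in E0del/+ 1, 30.8 in WT 2, 63.03 in E0del/+ 2 and 104 in E0del/+ 3. The 6 endothelial markers, all detected and led by Cdh5, summed to 270, 282, 132, 264 and 212 CPM in the same order. Both lists and Rpl3 were lowest in WT SkM 2. In LV, leukocyte markers (of which Cd3e was at 0 in E0del/+ LV 3) summed to 217 to 343 CPM and endothelial markers to 1118 to 2225 CPM, both highest in E0del/+ LV 2 and lowest in WT LV 2, as was Rpl3. The 5 fibroblast markers, all detected and led by Dcn or Col3a1, summed in SkM to 453, 184, 136, 324 and 476 CPM in that order, lowest in WT SkM 2 but highest in E0del/+ SkM 3, where Rpl3 was not. In LV they summed to 837 to 1526 CPM. The part of these cells in the Rpl3 values was not tested. In such bulk libraries, fewer cells of a type and less RNA per cell cannot be told apart.

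Among the other paralogs, Rps4y2 and Rpl22l1 differed most between the tissues. Rps4y2, a relative of the X-linked Rps4x, is listed on chromosome 6 (chr6:148354656-148355596). It stood at 10.98 and 6.30 CPM in the LVs of WT 1 and WT 2, and at 8.33, 9.08 and 6.98 CPM in those of E0del/+ 1 to 3. In SkM it stood at 1.51, 0.972, 1.48, 1.07 and 1.34 CPM in the same order, so that no library of one tissue reached the other. Its log2 fold change of 2.04 (SE 0.20), higher in LV in 5 of 5 mice, was the largest among the tested members (edgeR, adjusted p = 9.59e-05). It made up 5.81 ± 1.31% of the RPKM of Rps4y2 and Rps4x in LV and 1.19 ± 0.183% in SkM. Rps4x shared 72.2% of its windows with other transcripts, and Rps4y2 was not among the matched symbols, so reads may be split between them.

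Rpl22l1, the paralog of the RNA-binding Rpl22, was higher in SkM. It stood at 2.07, 4.05, 1.95, 2.73 and 1.92 CPM in the LVs of WT 1, WT 2 and E0del/+ 1 to 3, and at 3.46, 6.52, 3.88, 3.20 and 4.43 CPM in their SkM. The tissues overlapped only through WT LV 2 (4.05), the library with fast fibre transcripts. Its log2 fold change of -1.43 (SE 0.21), lower in LV in 5 of 5 mice, rested on 154 counts over all LV libraries (edgeR, adjusted p = 0.000647). Its share of the RPKM of both genes was 14.1 ± 3.76% in LV and 24.8 ± 3.92% in SkM.

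Rps27l and Rpl36al were called lower in LV with TMM scaling and kept the direction but not the call with total counts. Rps27l, known as a target of p53, averaged 11.7 ± 2.86 CPM in LV and 14.9 ± 2.21 CPM in SkM, with a log2 fold change of -1.04 (adjusted p = 0.00288 by edgeR) that became -0.37, and was not called, with total counts. Its share of the pair with Rps27 could not be judged, as Rps27 itself was almost uncounted. Rpl36al averaged 7.82 ± 2.64 and 8.32 ± 1.60 CPM, and its log2 fold change moved from -0.79 (adjusted p = 0.00316 by edgeR) to -0.13, which was not called. Rpl7l1 averaged 38.0 ± 3.91 CPM in LV and 27.6 ± 1.496 CPM in SkM, not called with TMM scaling (log2 fold change -0.21, adjusted p = 0.156 by edgeR) and called higher in LV with total counts (0.46). Rps19bp1, whose product binds Rps19, averaged 3.70 ± 1.24 and 3.64 ± 0.517 CPM and was not called under either scaling.

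Whether the family as a whole was higher in LV or in SkM depended on the scaling. All members together held 5855 and 5768 CPM in the LVs of WT 1 and WT 2, and 6138, 8356 and 5699 CPM in those of E0del/+ 1 to 3. In SkM they held 5805, 5892, 5651, 5024 and 5008 CPM in the same order. By CPM, LV was thus higher in 4 of 5 mice, with means of 6363 ± 1126 and 5476 ± 429 CPM, but the mean difference of 887 ± 1405 CPM was smaller than its spread and rested mainly on E0del/+ 2. With TMM factors the same sums became 5018 ± 515 CPM in LV and 6912 ± 803 CPM in SkM, lower in LV in 5 of 5 mice. The factors were 1.17 to 1.42 in LV and 0.708 to 0.900 in SkM. In SkM the 10 most abundant genes took 27.2% to 29.5% of a library, and in LV 12.5% to 14.5%.

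**Figure D3:**
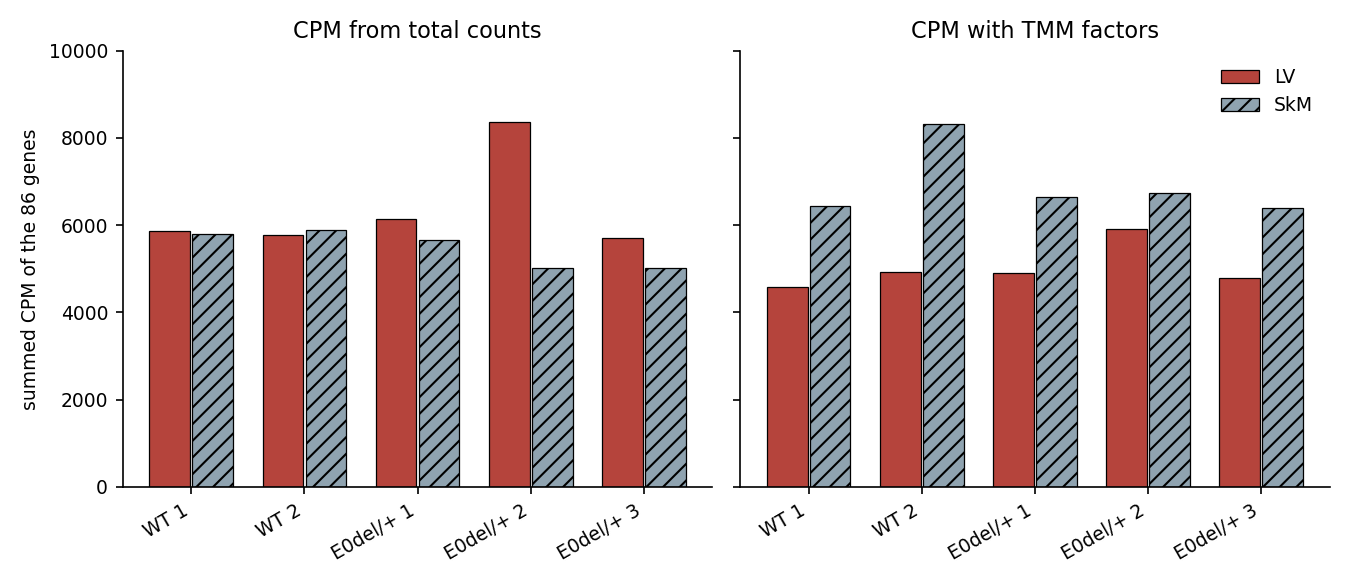
Summed CPM of all 86 members in the LV (plain bars) and SkM (hatched bars) library of each mouse, scaled by total counts (left) and with TMM factors (right). With total counts LV is higher in 4 of 5 mice, and with TMM factors lower in 5 of 5.

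Called genes followed the same divide. With TMM scaling, 45 of 80 tested members were called (62.1% of all 13283 genes tested were). Of these, 43 of 80 tested members were lower in LV (30% of all genes tested were), among them Rps20, Rpl15 and Rpl4, and 2 were higher in LV, Rpl3 and Rps4y2 (32.1% of all genes tested). Scaled by total counts, 2 were lower and 25 higher, against 12% and 59.3% of all genes tested. The median member had a log2 fold change of -0.40 where the median of all genes was 0.02, and with total counts these were 0.26 and 0.68, a shift that TMM removes. The difference from the median of all genes was -0.42 under both, since a scaling moves all genes of a library alike. In the 3 E0del/+ mice alone, 16 members were lower and 2 higher in LV with TMM scaling, against 25.3% and 26.6% of all 13432 genes tested there.

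Only 4 members kept both call and direction under both scalings: Rps4y2 and Rpl3 higher in LV, Rpl3l and Rpl22l1 higher in SkM. Of these, 3 are paralogs and the other is the parent of Rpl3l. Rpl5, Rpl22 and Rps4x were called in opposite directions, lower in LV with TMM scaling and higher with total counts. Changes of at least 2-fold were rare among the members with TMM scaling. In LV, 1 member was higher by this measure, against 21.5% of all genes, and 3 were lower (Rpl3l, Rpl22l1 and Rps27l), against 13.1% of all genes.

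**Figure D4:**
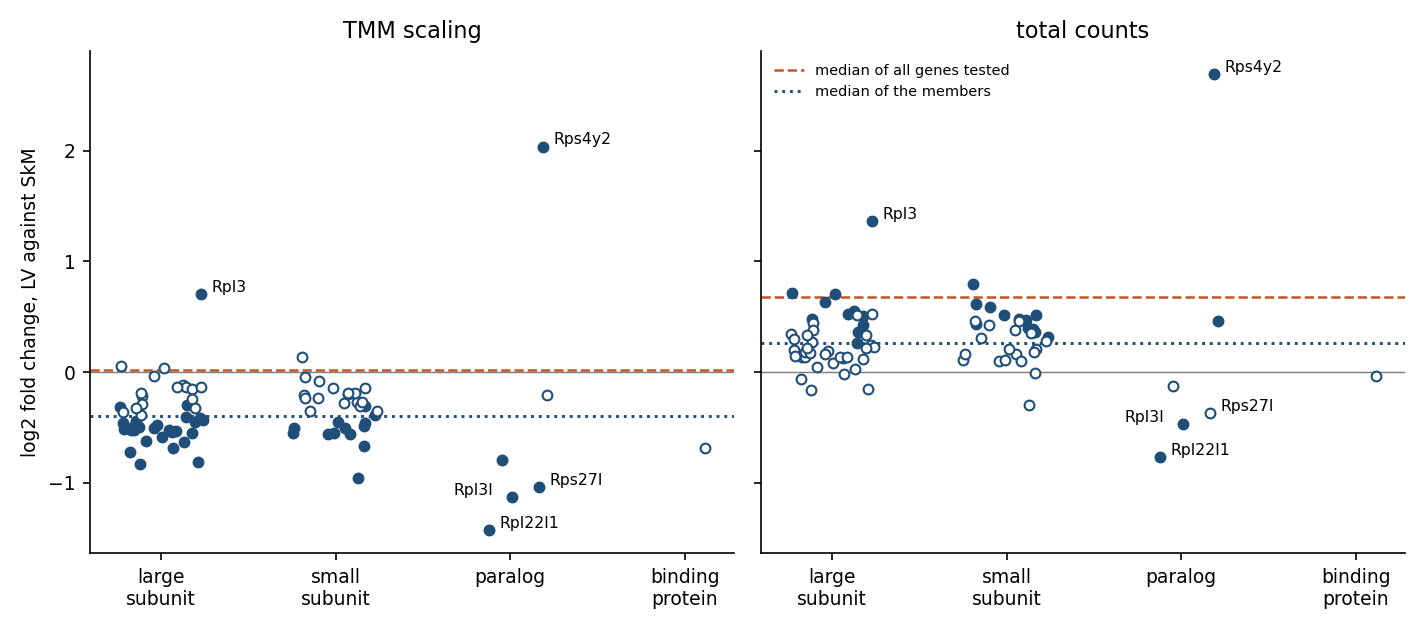
Log2 fold change of LV against SkM for the 80 tested members by class, with TMM scaling (left) and total counts (right). Filled points have an adjusted p under 0.05 by edgeR, the dashed line is the median of all genes tested and the dotted line that of the members. Most subunit genes change side of 0 between the scalings, while Rps4y2, Rpl3, Rpl3l and Rpl22l1 do not.

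Large subunit genes stood slightly lower in LV relative to small subunit genes. With TMM scaling the median log2 fold change was -0.43 over the 43 large subunit genes and -0.31 over the 30 small subunit genes, and 40 and 29 of them lay below 0, a direction that flipped with total counts (medians 0.23 and 0.36). The ratio of summed RPKM of the large to the small subunit, which needs no scaling, was 1.199 ± 0.0207 in LV and 1.25 ± 0.0254 in SkM, lower in LV in 5 of 5 mice. The largest falls among subunit genes with TMM scaling were those of Rps20, Rpl15 and Rpl4, each lower in LV in 5 of 5 mice. Rps20, of the head of the small subunit, averaged 31.2 ± 7.86 CPM in LV and 37.7 ± 6.45 CPM in SkM (log2 fold change -0.96, standard error 0.14, adjusted p = 0.00074 by edgeR). Rpl15 averaged 54.9 ± 5.42 and 61.5 ± 5.98 CPM (log2 fold change -0.83, standard error 0.10, adjusted p = 0.000284). Rpl4 averaged 293 ± 50.04 and 322 ± 14.6 CPM (log2 fold change -0.82, standard error 0.12, adjusted p = 0.000533). With total counts these were -0.29, -0.16 and -0.15, and none of the 3 was called.

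The sequences around the starts of these genes were compared in RefSeq (GRCm38.p6), which held 76 starts of 64 members, each with 250 bases before and 50 after the start. A run of at least 8 C or T letters within 30 bases of a start was found for 35 of 64 members (54.7%), against 25.8% of the 27025 genes in RefSeq. CTTCCG, on either strand, was found in 43 of 64 (67.2%), against 18.8%. CAGCTG was found in 4 of 64 (6.25%) against 18.3%, CATTCC in 10.9% against 16.6% and TATAAA in 10.9% against 15.7%. Rpl3l was among the 4 members with CAGCTG and had neither CTTCCG nor such a run at either of its 2 starts, where the longest runs had 5 and 4 letters. The same held for 9 other members, among them Rpl22, Rplp0 and Rps4x. The start of Rpl3l at which CAGCTG was found is shown beside those of Rpl15 and Rpl22l1, both called higher in SkM with TMM scaling, and of Rpl7a and Rps10 with long runs, to show this contrast. Rpl3l is given from 100 bases before to 30 after its start (chr17:24727726-24727855, plus strand). The others are given from 60 before to 20 after: Rpl15 (chr14:18270967-18271046, minus strand), Rpl22l1 (chr3:28805448-28805527, plus strand), Rpl7a (chr2:26910747-26910826, plus strand) and Rps10 (chr17:27635225-27635304, minus strand). Capitals mark CAGCTG in Rpl3l and the longest C or T run in the others.
Rpl3l: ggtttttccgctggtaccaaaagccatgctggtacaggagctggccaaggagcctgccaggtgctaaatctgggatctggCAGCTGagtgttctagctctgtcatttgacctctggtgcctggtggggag
Rpl15: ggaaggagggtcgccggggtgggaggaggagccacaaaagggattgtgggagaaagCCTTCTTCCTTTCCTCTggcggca
Rpl22l1: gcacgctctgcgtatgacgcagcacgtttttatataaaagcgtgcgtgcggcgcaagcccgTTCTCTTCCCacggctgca
Rpl7a: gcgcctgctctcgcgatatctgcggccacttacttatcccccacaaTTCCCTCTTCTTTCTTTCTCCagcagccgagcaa
Rps10: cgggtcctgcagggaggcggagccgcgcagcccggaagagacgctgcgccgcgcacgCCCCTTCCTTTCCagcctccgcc
The runs had 17 letters in Rpl15, 10 in Rpl22l1, 21 in Rpl7a and 13 in Rps10, and Rpl22l1 also held TATAAA. A match of letters is a description and says nothing of binding.

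Between libraries of a tissue, the members moved as a block more than one by one. The SD of log2 CPM with TMM factors over 5 libraries had a median of 0.23 over the 80 members in LV, near that of all 13283 genes (0.24), and of 0.18 in SkM, where all genes had 0.27. The 3005 genes at or above the typical level of a member had 0.20 and 0.19, and the genes of the mitochondrial ribosome 0.16 and 0.26. When the median deviation of the members in each library was subtracted, the values of the members fell to 0.13 in LV and 0.11 in SkM. The subtracted value came from the same members, so some fall is built in, and no other set of genes was treated alike. Much of the spread was thus shared by the members of a library.

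This shared part came mostly from 1 library in each tissue. In E0del/+ LV 2 the median member stood 0.34 above its LV median on the log2 scale, 76 of 80 members lay above it, and for 65 of 80 this was the highest LV library. In WT SkM 2 the median member stood 0.30 above its SkM median, 78 of 80 lay above it, and for 73 of 80 it was the highest SkM library. The medians of the other 8 libraries were between -0.07 and 0. E0del/+ LV 2 was high under both scalings, with 8356 CPM against 5699 to 6138 in the other LVs, and 5904 against 4573 to 4929 with TMM factors. WT SkM 2 stood apart with TMM factors (8324 CPM against 6392 to 6748) but not by total counts (5892 against 5008 to 5805), and its TMM factor of 0.708 was the lowest of all libraries.

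Other genes moved with these libraries. In WT SkM 2, the median of the 76 genes of the mitochondrial ribosome stood 0.41 above its SkM median and that of 430 short genes outside the members (exon length under 1000 bases, mean log2 CPM of at least 3) stood 0.44 above, while 5627 long genes (at least 2500 bases, same minimum) had a median of 0. In E0del/+ LV 2, short genes stood 0.20 above and long genes at -0.08, but the mitochondrial ribosome stood at 0.00. This library also held the most endothelial marker counts (2225 CPM, against 1118 to 1579 in the other LVs) and the most of the 3 atrial markers, led by Nppa (593 CPM against 201 to 437). The part of transcript length, RNA quality or cell composition in these deviations was not tested.

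**Figure D5:**
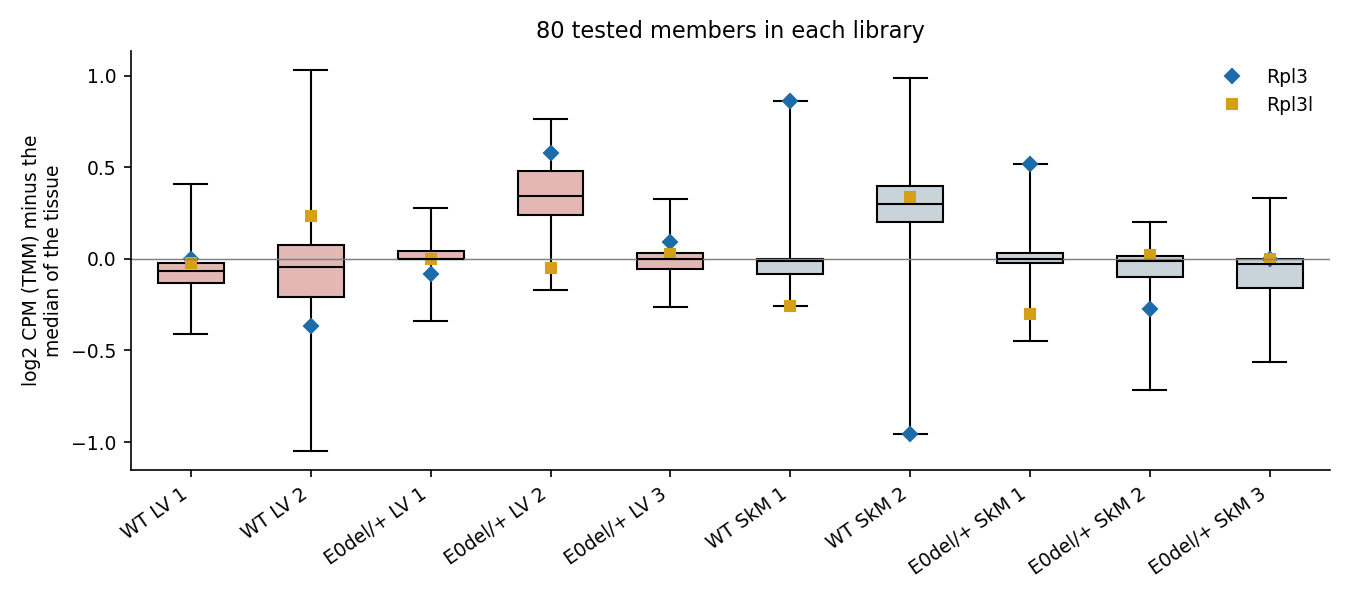
Deviation of the 80 tested members from their median over the 5 libraries of the same tissue, as log2 CPM with TMM factors, for each library (boxes span the quartiles, whiskers the full range). E0del/+ LV 2 and WT SkM 2 lie above 0 with medians of 0.34 and 0.30, and Rpl3 (diamonds) and Rpl3l (squares) depart from the other members in several libraries.

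Rpl3l did not follow the block in LV. It deviated by -0.052 in E0del/+ LV 2, where Rpl3 deviated by 0.58, and by 0.24 in WT LV 2, where Rpl3 deviated by -0.37 and which held the fast fibre transcripts. In WT SkM 2, Rpl3l stood high with the members (0.34) while Rpl3 stood at -0.95. The most even members were Rpl15, Rplp0 and Rps4x in LV (SD 0.06, 0.09 and 0.11 on the log2 scale), and Rpl37a, Rpl41 and Rpl31 in SkM (each 0.11). Rpl3l came next in LV with 0.11, but was 71st of 80 in SkM with 0.26. The least even were Rps19bp1, Rpl22l1 and Rpl36a in LV (0.52, 0.46 and 0.40), and Rpl3, Rpl22l1 and Rpl38 in SkM (0.71, 0.49 and 0.40). Apart from Rpl3, with 126 to 452 counts in SkM, none of these passed 18.3 CPM in a library of that tissue. Single libraries carried much of the spread for some of these members, but not for Rpl36a and Rpl38. Without WT LV 2 the SD fell to 0.23 for Rps19bp1 and 0.13 for Rpl22l1 in LV, but only to 0.36 for Rpl36a. Without WT SkM 2 it fell to 0.51 for Rpl3 and 0.23 for Rpl22l1 in SkM, but stood at 0.41 for Rpl38. These alternatives were chosen after seeing the data. The part of counting error was not tested.

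E0del/+ and WT were then compared within each tissue. Most members had higher values in E0del/+ in LV and lower values in SkM, under each of the 3 scalings, but no member was called in either tissue. In LV, edgeR's quasi-likelihood test called 0 of 80 members, as it called 0% of the 13420 genes tested. At an unadjusted p under 0.05, 4 of 80 members (5%) and 4.2% of all genes passed, and DESeq2 called 0 members and 12 genes. The median member had a log2 fold change of 0.21 (all genes -0.01), and 66 of 80 lay above 0. Without E0del/+ LV 2 it was 0.09. The summed CPM stood at 5855 and 5768 in WT and at 6138, 8356 and 5699 in E0del/+, so that 1 E0del/+ library lay below both WT libraries. The 3 members first in edgeR's order were Rpl36 (log2 fold change 0.59, SE 0.18), Rpl37 (0.62, SE 0.23) and Rpl37a (0.43, SE 0.17), all of the large subunit and all with an adjusted p of 0.997. Rpl36 stood at 33.6 and 31.4 CPM in WT LVs and at 43.7, 67.5 and 43.7 CPM in E0del/+ LVs, so that the genotypes did not overlap. It was picked as first of 80 members, and how many members or other genes separated in this way was not counted. An exact permutation test of 2 against 3 libraries cannot go below 0.1, and none was run.

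In SkM, edgeR's quasi-likelihood test called 0 of 80 members and 0% of 13154 genes, with 2 members (2.5%) and 0.867% of all genes at an unadjusted p under 0.05, and DESeq2 called 0 genes. The median member had a log2 fold change of -0.18 (all genes -0.01), and 76 of 80 lay below 0. Without WT SkM 2, the library in which the members stood high, it was -0.046. First in edgeR's order stood Rps23 (log2 fold change -0.40, SE 0.14), Rpl13a (-0.33, SE 0.13) and Rps20 (-0.40, SE 0.16), with an adjusted p of 0.9998. Rps23 stood at 28.2 and 27.0 CPM in WT SkM and at 22.6, 18.4 and 21.96 CPM in E0del/+ SkM.

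The pair of Rpl3l and Rpl3 gave no genotype call either. For Rpl3l the log2 fold change of E0del/+ against WT was -0.12 (standard error 0.19) in LV and -0.16 (standard error 0.20) in SkM. For Rpl3 it was 0.40 (standard error 0.23) and -0.13 (standard error 0.57). The Rpl3l share of the pair was 90.1 ± 2.71% in WT (n = 2) and 86.6 ± 3.17% in E0del/+ LVs (n = 3), and 95.7 ± 4.04% and 96.0 ± 1.64% in SkM, and the ranges of the genotypes overlapped in both tissues. Each WT mean included a library of doubtful purity. WT LV 2, with its fast fibre transcripts, had a share of 92.0% and 29.2 CPM of Rpl3. WT LV 1 had 88.1% and 41.3 CPM, and the E0del/+ LV shares ran from 82.9% to 88.9%.

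The difference of the genotype effects between the tissues, tested as the interaction of tissue and genotype paired by mouse, was also called by edgeR for 0 of 80 members and 0% of 14327 genes. DESeq2 called 0 of either. At an unadjusted p under 0.05, 10 members (12.5%) and 1.66% of all genes passed by edgeR, and 3 members and 254 genes by DESeq2. The median member had an interaction of 0.39 on the log2 scale (all genes -0.02), and 76 of 80 lay above 0. The 2 libraries in which the whole block stood high, E0del/+ LV 2 and WT SkM 2, both enter this value with a sign that raises it. Batch 2 holds both, whereas in batch 1 the median member deviated in LV by 0 in E0del/+ and -0.07 in WT, and in SkM by 0 and -0.01. The pattern was not particular to the members. For the 76 genes of the mitochondrial ribosome, the median log2 fold change of E0del/+ against WT was 0.13 in LV and -0.16 in SkM. Their median interaction was 0.32, as was that of 3 ribosome components outside the symbol rule. Elongation and initiation factors had 0.00082 and -0.053, and biogenesis factors and regulators of ribosomal protein synthesis -0.0022 and -0.15.

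Other genes of the translation machinery are read against all genes tested, of which 32.1% were higher and 30% lower in LV with TMM scaling, and 59.3% and 12% with total counts. Of 8 elongation factors, 0 were higher and 5 lower in LV with TMM scaling, and 3 higher and 1 lower with total counts. Eef1g fell furthest (169 ± 24.9 CPM in LV and 251 ± 29.8 in SkM, log2 fold change -1.24), before the muscle form Eef1a2 (-0.96) and Eif5a (-0.63), whose CPM was slightly higher in LV (289 ± 34.5 against 282 ± 33.04). Of 30 initiation factors, 1 was higher and 16 lower with TMM scaling, and 13 higher and 5 lower with total counts. The largest change was that of Eif4g3, a scaffold of cap binding, with 102 ± 14.8 CPM in LV and 272 ± 48.0 CPM in SkM (log2 fold change -2.07, adjusted p = 5.4e-05 by edgeR), followed by Eif2s2 (-1.67) and Eif1ax (-1.21).

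Of 58 factors of ribosome biogenesis, 4 were higher and 36 lower with TMM scaling, and 18 and 3 with total counts. Polr1e, a subunit of RNA polymerase I, went against most of the list, with 22.4 ± 6.01 CPM in LV and 2.64 ± 0.425 CPM in SkM (log2 fold change 2.38, adjusted p = 4.31e-05 by edgeR). Rrp12 (-1.33) and Tsr1 (-1.25) were lower in LV. Of 15 regulators of ribosomal protein synthesis, 2 were higher and 8 lower with TMM scaling, and 6 and 2 with total counts. Mycn was higher in LV (5.93 ± 3.97 against 0.579 ± 0.424 CPM, log2 fold change 2.64), while Eif4ebp2, a repressor of cap-dependent translation (63.01 ± 18.3 against 159 ± 19.2 CPM, -2.04), and Larp1, which binds transcripts with a pyrimidine start (205 ± 23.0 against 292 ± 10.4 CPM, -1.18), were lower.

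Gnb2l1, which encodes the ribosome-bound scaffold RACK1 and whose symbol falls outside the rule, was lower in LV with TMM scaling (log2 fold change -0.42, adjusted p = 0.0251 by edgeR) but had more CPM in LV (289 ± 69.5 against 240 ± 16.5). Of the 76 genes of the mitochondrial ribosome, 10 were higher and 14 lower in LV with TMM scaling.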

How the data were processed

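Poly(A) RNA was extracted with TRIzol, selected in 2 rounds and prepared with the Nextera XT kit, which loses the strand of a transcript. For every library the authors deposited 1 file with raw counts per gene and RPKM values, which equal the count divided by summed exon length and by the total of gene counts. The submitters' processing notes name STAR, DESeq2 and mm10 without role or version, and the counting software, annotation and treatment of reads with several matches are not given in the sources used here. Groups, replicate numbers and batches were taken from the labels, and the pairing by mouse from the animal numbers in the library names. Deviations from the group means correlated between both tissues of a mouse at 0.0323, 0.126 and -0.102, 0.126 and 0.111 (E0del/+ 1, WT 1, E0del/+ 2, WT 2 and E0del/+ 3). With only 2 WT mice, the deviations of WT 1 and WT 2 mirror each other, so both WT values must be equal. Both mice of a batch correlated at 0.0284 and -0.136 in LV and at 0.433 and 0.276 in SkM (batches 1 and 2). No 2 libraries agreed within sampling noise.

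Counts were tested in R 4.3.3 with edgeR 4.0.16: filterByExpr, TMM, the quasi-likelihood test, Benjamini-Hochberg adjustment over all genes tested and a threshold of 0.05, with mouse as a block for LV against SkM and for the interaction. DESeq2 1.42.0, its size factors, total counts, other filters, unpaired or batch-blocked fits and each mouse left out were the alternatives. Standard errors are on the log2 scale. Log2 CPM used a prior count of 2. The procedure was tested on simulated data with 200 changed genes. These were independent draws around a mean profile shared by all libraries, without effects of mouse or batch or foreign transcripts. They cannot check how scaling acts between the tissues, nor the genotype fits with an impure WT library. Named members were Rpl3, Rpl3l, the paralogs, up to 5 other members with the largest called change per direction and the same sign in 5 of 5 mice, the 3 highest, lowest, most and least even, the 3 smallest p for the genotype, and the 3 largest called changes of each translation list; Cd3e, Rpl5, Rpl22 and Rps4x were named after their values were seen. A few genes that this rule names are not reported here. Members and lists were chosen with earlier results of these data known. Tables were made with pandas 2.3.3 and intervals with the Wilson formula.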

Additional observations from a re-analysis of the deposited data

Results flagged for a closer look

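Over the 5 libraries of each tissue, 32 sets of values (the summed members, the ratio of large to small subunit, the Rpl3l share and the named members) were examined with Dixon's criterion, which chance passes in about 1 of 20 sets. It was passed by 3 sets, all in LV and all through the high value of E0del/+ LV 2. The summed members stood at 8356 CPM there, against 5699 to 6138 CPM in the other LVs. Rpl15 stood at 64.6 CPM, against 52.0 to 53.0 CPM, and Rpl13a at 111 CPM, against 66.1 to 73.8 CPM. With TMM factors, an alternative chosen after seeing the data, the summed members still passed (5904 CPM against 4573 to 4929), but Rpl15 (45.6 CPM against 41.03 to 44.4) and Rpl13a (78.3 CPM against 55.4 to 63.05) did not. By CPM, 28 of 80 tested members passed in LV (35%), each through E0del/+ LV 2, against 11.7% of all 13283 genes through any library and 5.07% through this one. With TMM factors these were 22.5% of members, 20% of members through E0del/+ LV 2, and 11.3% and 3.73% of all genes. In SkM, 1 member (1.25%) passed by CPM, against 5.28% of all genes, and 18 members (22.5%) with TMM factors, against 5.62%. These values share a library and are not independent. Genotype groups of 2 and 3 libraries are too small for the criterion, and the cause was not tested.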

How the results depend on the processing

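Scaling by total counts in place of TMM turned the direction of the family: the median member log2 fold change of LV against SkM went from -0.40 to 0.26, members called higher in LV from 2 to 25 and those called lower from 43 to 2. In the other direction, the log2 ratio of summed CPM, 0.20 with total counts, became -0.46 with TMM factors. Both follow from the factors themselves. Without pairing by mouse (no replicate block), Rpl3 lost its call (log2 fold change 0.62), so that 1 member was called higher in LV, and the pairing changed no call of Rpl3l, Rps4y2, Rpl22l1, Rps27l, Rps20, Rpl15 and Rpl4. In E0del/+ mice alone, 16 members were called lower in LV, from fewer samples. The Rpl3l share differed by -26.0 points between LV and SkM when Rpl3 was raised for shared windows. For the genotype, DESeq2 called 12 genes in LV, and batch as a replicate block 5 genes in LV and 1 in SkM, with 0 members in each.

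With each mouse left out in turn, members called higher in LV numbered 1 to 2 and lower 34 to 52, Rpl3 ranged from 0.51 to 0.93 and Rpl3l from -1.19 to -1.07. Genes called for the genotype in LV ranged from 0 to 578, the latter without WT 1, when WT LV 2 with its fast fibre transcripts was the only WT library and was assumed to vary like the E0del/+ libraries, with 0 members called. The interaction likewise called 155 genes and 0 members without WT 1. The median member for the genotype ranged from 0.09 to 0.28 in LV and from -0.29 to -0.046 in SkM. With total counts, Rps27l, Rps20, Rpl15, Rpl4 and Rpl36al lost their calls, Rpl7l1 gained one in the other direction, and Rpl5, Rpl22 and Rps4x were called in the other direction. The size of change that 2 WT and 3 E0del/+ mice can resolve was not tested, and 4 subunit genes were almost uncounted.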

Other observations

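Markers of other cell types differed widely between SkM libraries. The 6 adipocyte markers, led by Cfd, summed to 1139 and 8.98 CPM in WT SkM 1 and 2, and to 285, 150 and 1198 CPM in E0del/+ SkM 1 to 3. In LV they summed to 284 CPM in WT LV 2 and to 2.01 to 24.2 CPM in the other libraries. The 2 slow fibre markers, led by Tnni1, summed to 175 and 17.3 CPM in WT SkM 1 and 2, and to 198, 302 and 36.3 CPM in E0del/+ SkM 1 to 3. The lowest slow fibre sums, 17.3 and 36.3 CPM, were those of WT 2 and E0del/+ 3, the mice that read as male. WT SkM 2, in which the ribosomal protein genes stood high with TMM factors, thus had the fewest adipocyte and slow fibre transcripts of the SkM libraries. Their part in the values of the ribosomal protein genes was not tested.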
